A study of Homo sapiens with 6 samples.

Results

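Cholesterol and fatty acid synthesis was followed through 30 genes that were chosen by name: 23 genes of sterol synthesis and its control, and 7 genes that make, elongate or desaturate fatty acids. They were found by symbol among the 36601 genes of each deposited count matrix, and all 30 were among the 16763 genes that passed the low-count filter. They were measured in SK-N-BE(2)-C cells, a long-established line from a human neuroblastoma, by Seq-Well S3, in which single cells are captured with barcoded beads in small wells. There were 3 groups of 2 libraries: cells given DMSO (the solvent control), cells given TSA (the usual abbreviation of trichostatin A, which blocks the enzymatic activity of histone deacetylases) and cells given E6R. The series calls both agents HDAC inhibitors, and its title names one that does not act on the enzymatic activity. All groups used the same line; doses, treatment times and what E6R is chemically are not stated in the labels. The comparisons ask how each agent differs from the solvent, and whether the agents differ from each other.

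Cells build cholesterol from acetyl-CoA through the mevalonate pathway, which leads to farnesyl diphosphate, squalene, lanosterol and, after a series of demethylation, reduction and isomerisation steps, cholesterol. The SREBP transcription factors control these genes. When sterols are scarce in the endoplasmic reticulum, SCAP escorts SREBP to the Golgi, where proteases release its active part; INSIG proteins hold SCAP back when sterols are plentiful. SREBF2 is known mainly for the sterol genes, and SREBF1 for the fatty acid genes, in which citrate-derived acetyl-CoA is built into palmitate, elongated and desaturated. Neural cells make much of their own cholesterol.

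SREBP is known to act at promoters together with the factors NF-Y and Sp1, so the 250 bases before the transcription start were searched, on both strands, in the RefSeq promoters of GRCh38.p14. The table held 26 of the 30 genes, all but ACAT2, FDFT1, SQLE and FASN. The NF-Y box CCAAT was present in 17 of the 26 promoters (65.4%) and in 32.0% of all 35116 promoters. The Sp1 box GGGCGG was present in 24 of 26 (92.3%) and in 42.6% of all promoters. One sterol response element, TCACNCCAC, was found in 1 of 26, that of SREBF2, and in 0.883% of all promoters. The E-box CACGTG was found in 3 of 26 (11.5%), those of SC5D, INSIG1 and SCAP, and in 6.34% of all promoters. These 4 words were counted separately, with no rule on overlap, and a match is a description of letters, not of binding. The 26 promoters belong to genes that passed the low-count filter, while the 35116 were not limited to such genes. The shares are thus of unlike sets, and whether this bears on them was not tested. Stretches of 120 bases are shown for 3 sterol genes that were higher under TSA (LSS, HSD17B7 and DHCR7) and for 1 fatty acid gene that was lower (ELOVL6). They are written 5′ to 3′ on the gene's strand, with NF-Y and Sp1 boxes of either strand in capitals.
LSS, chr21:46228825-46228944, minus strand: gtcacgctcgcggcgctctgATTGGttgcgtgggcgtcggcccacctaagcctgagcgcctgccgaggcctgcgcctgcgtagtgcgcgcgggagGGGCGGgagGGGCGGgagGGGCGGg
HSD17B7, chr1:162790582-162790701, plus strand: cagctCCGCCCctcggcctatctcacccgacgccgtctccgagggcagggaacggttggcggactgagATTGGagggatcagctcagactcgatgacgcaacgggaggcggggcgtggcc
DHCR7, chr11:71448436-71448555, minus strand: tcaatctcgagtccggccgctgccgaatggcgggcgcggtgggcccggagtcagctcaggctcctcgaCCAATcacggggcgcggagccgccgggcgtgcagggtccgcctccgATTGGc
ELOVL6, chr4:110198677-110198796, minus strand: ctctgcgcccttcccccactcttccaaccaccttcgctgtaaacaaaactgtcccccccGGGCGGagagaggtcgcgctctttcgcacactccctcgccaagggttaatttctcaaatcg
The LSS and HSD17B7 stretches lie just outside the gene as GENCODE 29 annotates it, while those of DHCR7 and ELOVL6 lie inside the annotated span, outside its exons, because the RefSeq start is further downstream. In the stretches shown, the sterol promoters each hold at least 1 NF-Y box and the ELOVL6 stretch holds none. Among genes that differed under TSA and had a promoter in the table, the NF-Y box was found in LSS, TM7SF2, HSD17B7, DHCR7 and STARD4, and not in IDI1, SREBF1, ELOVL6, FADS1 or FADS2. Among genes not called under TSA, it was found in HMGCS1, FDPS, MVD, MVK, MSMO1, NSDHL, EBP, SC5D, INSIG1, SREBF2, SCD and ACLY. PMVK, CYP51A1, SCAP and ACACA, also not called, had none. The box was thus found in both sets, and its relation to the calls was not tested.

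Each library was reduced to the sum of its cells' unique molecular identifier (UMI) counts, from 1861 to 3946 cells with 4206366 to 26180262 UMIs, and cells were not used as replicates. Both DMSO libraries were shallower than the other 4. Mitochondrial genes took 5.83% and 6.20% of UMIs under DMSO, 6.08% and 9.71% under TSA, and 1.55% and 1.51% under E6R. Libraries shared 11 to 58 cell barcodes a pair. The 8 adrenergic neuroblastoma markers were all detected and summed to 3094 to 5541 CPM (UMI counts scaled by the TMM library size). Immune markers summed to 8.24 to 14.3 CPM, hepatocyte markers to 0.414 to 18.0 CPM and adipocyte markers to 0.190 to 2.12 CPM. No gene of these lists was at 0 in all 6 libraries. The labels do not say that the libraries came from separate cultures, so p-values measure only the spread between these samples. Genes were tested with edgeR's quasi-likelihood test, adjusted by Benjamini-Hochberg over all genes tested and called at an adjusted p under 0.05. Folds are log2 differences with their standard error (SE), and ± is the SD of 2 libraries.

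**Figure D1:**
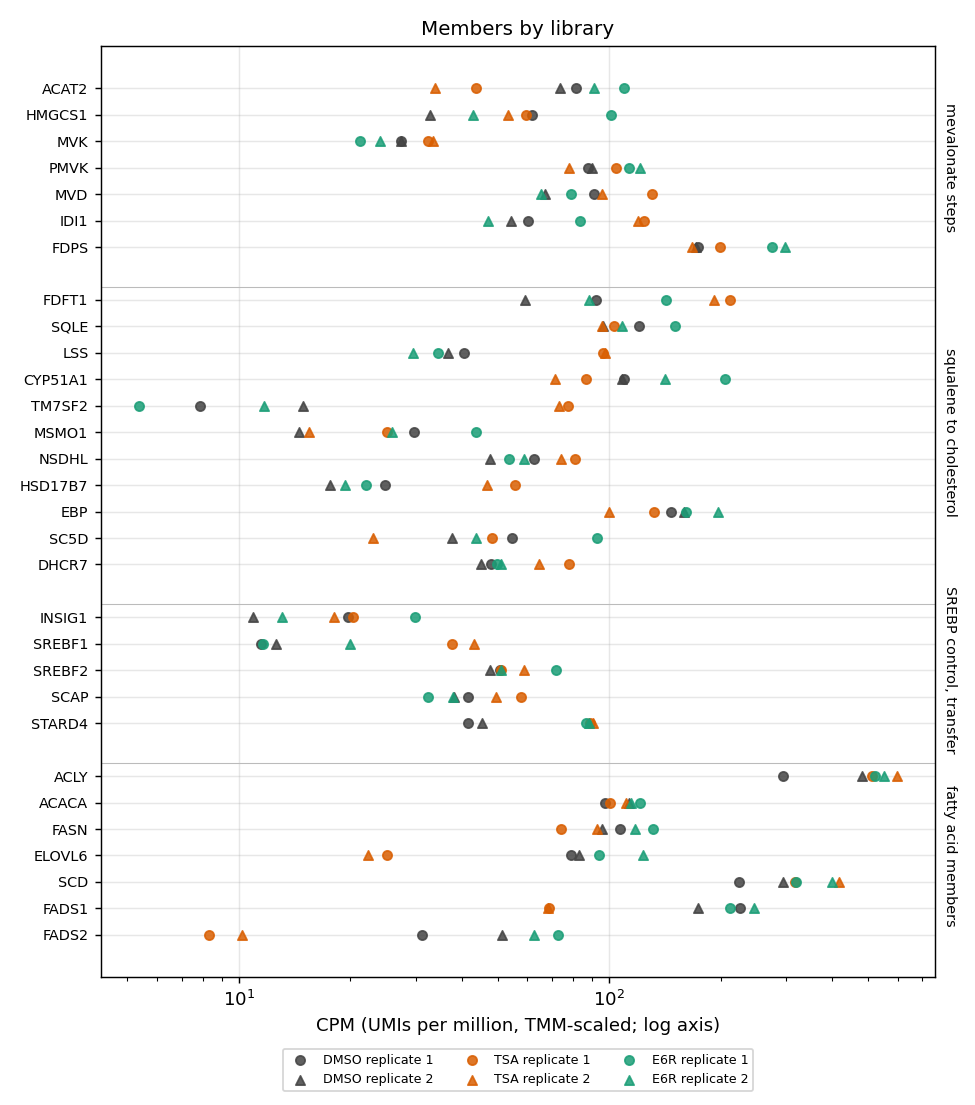
CPM of the 30 genes in each of the 6 libraries on a log axis, with genes in rows ordered by step of the pathway. Colour gives the treatment and the marker shape the replicate; levels compare libraries within a gene, not genes with each other. Both TSA libraries stand apart to the right for TM7SF2 (77.3 and 73.3 CPM) and LSS, and to the left for FADS2 (8.28 and 10.2 CPM), ELOVL6 and FADS1.

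TSA against DMSO raised 8 sterol genes and lowered ACAT2, ELOVL6, FADS1 and FADS2. Of the 30 genes 12 were called (40.0%), 8 higher and 4 lower, against 29.7% of all genes tested, 2720 higher and 2255 lower. Among the 23 sterol genes 8 rose and 1 fell, and among the 7 fatty acid genes none rose and 3 fell; the difference between these branches was not tested. The 30 genes had a median log2 fold change of 0.26, with 20 fitted above 0, and all genes tested had a median of -0.01, with 49.5% above 0. The counts by direction depend in part on scaling: with library size only, 6 were called higher and 5 lower, and with RLE size factors 7 higher and 4 lower. Library size only moved the median of all genes to -0.32 and that of the 30 genes to -0.05, with 14 fitted above 0.

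Of the 7 mevalonate genes, 1 rose and 1 fell under TSA (28.6% called, near the 29.7% of all genes tested). IDI1 (chr10:1039152-1049170, minus strand) interconverts isopentenyl and dimethylallyl diphosphate. It stood at 60.1 and 54.1 CPM under DMSO and 124 and 120 CPM under TSA, so the groups were well apart. Its log2 fold change was 1.09 (SE 0.28, edgeR adjusted p = 0.0218). ACAT2 (chr6:159760328-159779055, plus strand), which joins acetyl-CoA units at the entry to the pathway, stood at 81.4 and 73.6 CPM under DMSO and 43.5 and 33.8 CPM under TSA. It fell by 1.0 on the log2 scale (SE 0.21, edgeR adjusted p = 0.0117). ACAT2 overlaps TCP1 and SOD2 in the annotation, and the strand rule of the counting is not stated, so its reads are not certain to be its own; TCP1 had a log2 fold change of 0.56 (adjusted p = 0.0629). HMGCS1, which makes HMG-CoA, stood at 61.8 and 32.9 CPM under DMSO and 59.7 and 53.4 CPM under TSA. The HMGCS1 values under TSA lay inside the DMSO range. FDPS, which makes farnesyl diphosphate, stood at 174 and 172 CPM under DMSO and 199 and 167 CPM under TSA, with a log2 fold change of 0.08. The kinases MVK and PMVK and the decarboxylase MVD were not called, with log2 fold changes of 0.27, 0.04 and 0.52.

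Of the 11 genes of the steps from squalene to cholesterol, 5 rose under TSA and none fell (45.5% called, against 29.7% of all genes tested). TM7SF2 (chr11:65111845-65116384, plus strand), a sterol C-14 reductase, stood at 7.86 and 14.9 CPM under DMSO and 77.3 and 73.3 CPM under TSA. It rose by 2.72 on the log2 scale (SE 0.43, 95% interval 1.73 to 3.71, edgeR adjusted p = 0.00404), which is 6.58-fold. TM7SF2 overlaps VPS51 on the same strand, so reads of the shared stretch could be either gene's; VPS51 stood at 45.7 and 28.7 CPM under DMSO and 34.2 and 27.3 CPM under TSA. LSS (chr21:46188141-46228824, minus strand), which closes the sterol rings to give lanosterol, stood at 40.6 and 36.7 CPM under DMSO and 96.2 and 97.2 CPM under TSA. LSS rose by 1.32 (SE 0.20, adjusted p = 0.00311). Both replicates of each group lay close together for LSS, which overlaps unnamed genes on the other strand, as do FDFT1 and DHCR7 below. FDFT1 (chr8:11795573-11839309, plus strand), which makes squalene, stood at 92.0 and 59.3 CPM under DMSO and 212 and 192 CPM under TSA, and rose by 1.42 (SE 0.30, adjusted p = 0.0115). HSD17B7 (chr1:162790702-162812817, plus strand), a 3-keto reductase of the demethylation steps, stood at 24.9 and 17.6 CPM under DMSO and 55.5 and 46.8 CPM under TSA. It rose by 1.27 (SE 0.25, adjusted p = 0.00911). DHCR7 (chr11:71428193-71452868, minus strand), the reductase that gives cholesterol from its 7-dehydro precursor, stood at 47.8 and 44.9 CPM under DMSO and 77.8 and 64.7 CPM under TSA. Its rise was the smallest called, 0.62 (SE 0.20, adjusted p = 0.0459).

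The other 6 genes of these steps were not called under TSA. SQLE, the squalene oxidase, had a log2 fold change of -0.13, and MSMO1, the C-4 methyl oxidase, one of -0.12. CYP51A1, the lanosterol demethylase, stood at 110 and 108 CPM under DMSO and 86.6 and 71.3 CPM under TSA. Its groups did not overlap, and its log2 fold change of -0.46 had an adjusted p of 0.164 in edgeR; with library size only it was called lower. The dehydrogenase NSDHL had a log2 fold change of 0.49, the isomerase EBP one of -0.40 and the desaturase SC5D one of -0.37.

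Among the 5 genes of SREBP control and sterol transfer, 2 rose under TSA (40.0% called, against 29.7% of all genes tested). SREBF1 (chr17:17810399-17837002, minus strand), the SREBP gene known for fatty acid synthesis, stood at 11.5 and 12.6 CPM under DMSO and 37.6 and 43.2 CPM under TSA. It rose by 1.74 (SE 0.31, edgeR adjusted p = 0.0063). SREBF1 overlaps RAI1 on the other strand. SREBF2 stood at 50.8 and 47.6 CPM under DMSO and 51.0 and 58.9 CPM under TSA, with a log2 fold change of 0.16 (adjusted p = 0.623). STARD4 (chr5:111496033-111512590, minus strand), which carries sterols between membranes, stood at 41.4 and 45.3 CPM under DMSO and 88.5 and 90.6 CPM under TSA. It rose by 1.04 (SE 0.18, adjusted p = 0.00535); STARD4-AS1 lies on its other strand. SCAP stood at 41.6 and 38.1 CPM under DMSO and 57.7 and 49.4 CPM under TSA, with a log2 fold change of 0.43 (adjusted p = 0.158). INSIG1 stood at 19.8 and 10.9 CPM under DMSO and 20.4 and 18.0 CPM under TSA, with a log2 fold change of 0.33 (adjusted p = 0.601). The INSIG1 groups overlapped.

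The 3 fatty acid genes that fell under TSA elongate or desaturate the chain. FADS2 (chr11:61792980-61867354, plus strand), the delta-6 desaturase of polyunsaturated fatty acids, stood at 31.2 and 51.4 CPM under DMSO and 8.28 and 10.2 CPM under TSA. It fell by 2.16 on the log2 scale (SE 0.29, edgeR adjusted p = 0.0024), which is 4.48-fold lower. FADS1 (chr11:61799625-61829318, minus strand), the delta-5 desaturase, stood at 225 and 173 CPM under DMSO and 68.7 and 68.4 CPM under TSA. It fell by 1.54 (SE 0.21, adjusted p = 0.00247), 2.91-fold lower. ELOVL6 (chr4:110045846-110199199, minus strand), which elongates palmitate, stood at 78.6 and 82.6 CPM under DMSO and 25.1 and 22.3 CPM under TSA. ELOVL6 fell by 1.76 (SE 0.21, adjusted p = 0.0017), 3.40-fold lower. FADS1 and FADS2 are neighbours on opposite strands, with RefSeq starts 800 bases apart, and their annotated spans overlap, so without the strand rule part of their reads could be exchanged. FEN1, which lies within FADS2 on the same strand, had a log2 fold change of -0.27 (adjusted p = 0.284).

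The other 4 fatty acid genes, the desaturase SCD among them, were not called under TSA. FASN, the synthase that makes palmitate, stood at 107 and 95.4 CPM under DMSO and 74.0 and 92.6 CPM under TSA. SCD, the stearoyl-CoA desaturase, stood at 224 and 294 CPM under DMSO and 317 and 417 CPM under TSA. The log2 fold changes were -0.28 for FASN (edgeR adjusted p = 0.314) and 0.50 for SCD (adjusted p = 0.149). The SCD groups did not overlap and the FASN groups did not either. ACLY, which cleaves citrate to acetyl-CoA, had a log2 fold change of 0.51 (adjusted p = 0.169), and ACACA, the acetyl-CoA carboxylase, one of 0.00 (adjusted p = 0.99).

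**Figure D2:**
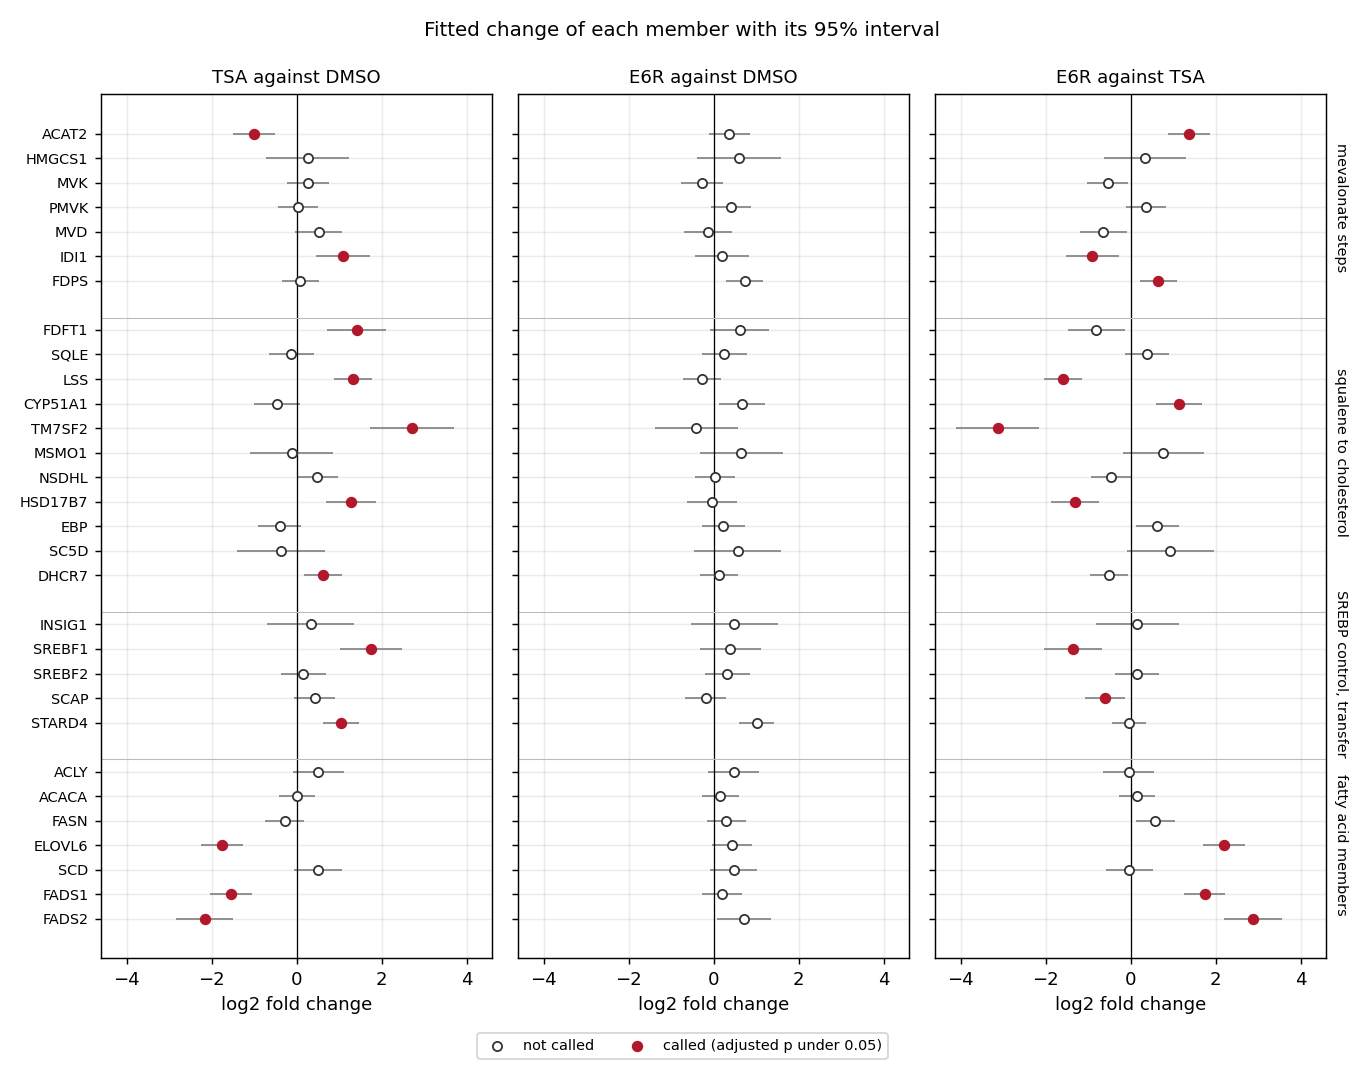
Log2 fold changes of the 30 genes in the 3 comparisons, with one panel each for TSA against DMSO, E6R against DMSO and E6R against TSA. Points are edgeR estimates, bars are 95% intervals and filled points are called at an adjusted p under 0.05. TM7SF2 at 2.72 and FADS2 at -2.16 mark the ends of the TSA panel, and the E6R against DMSO panel has no called gene.

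Of the 12 calls under TSA, 6 held in all 19 alternative settings: TM7SF2, LSS, STARD4, ELOVL6, FADS1 and FADS2. The other 6 calls were each lost without at least 1 library. Without TSA replicate 2 there were 7 calls; SREBF1 then had an adjusted p of 0.0528, FDFT1 one of 0.0579, IDI1 one of 0.0994, DHCR7 one of 0.102 and ACAT2 one of 0.123. Without TSA replicate 1, FDFT1 (0.0674), HSD17B7 (0.0714), IDI1 (0.103) and DHCR7 (0.245) missed the threshold. Without DMSO replicate 2 it was HSD17B7 (0.0779), FDFT1 (0.0881), IDI1 (0.139) and DHCR7 (0.236), and without DMSO replicate 1 ACAT2 (0.0717), IDI1 (0.0808) and DHCR7 (0.118). With library size only, IDI1 (0.0657) and DHCR7 (0.293) were not called. All of these kept their direction.

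E6R against DMSO gave no called gene among the 30, and none among all genes tested (0.0%) in edgeR's quasi-likelihood test. Unadjusted p-values under 0.05 were found for 4 of the 30 genes, FDPS, CYP51A1, STARD4 and FADS2, and for 2913 of all genes tested (17.4%). DESeq2 called 424 genes in all and 2 of the 30, STARD4 (log2 fold change 1.08, adjusted p = 0.000729) and FDPS (0.80, adjusted p = 0.0165). Fitting every gene without the low-count filter, edgeR called 1095 genes in all and 4 of the 30: STARD4 (adjusted p = 0.00168), FDPS (0.0193), CYP51A1 (0.0345) and FADS2 (0.0493). All of these were fitted higher under E6R. The DESeq2 fit and the unfiltered edgeR fit also took in genes under the low-count filter. Their totals are not shares of the genes tested in the main fit. With replicate number as a block, edgeR called 19 genes in all and none of the 30.

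Of the 30 genes, 24 were fitted above DMSO under E6R, with a median log2 fold change of 0.34. This compares with 52.0% of all genes tested and a median of 0.03. The rest of the pathway, described below, was nearer to all genes: 27 of its 51 tested genes were fitted above DMSO, with a median of 0.12. Both E6R libraries lay above both DMSO libraries for 14 of the 30 genes, against 24.6% of all genes tested, and below for 3 (MVK, LSS and SCAP), against 22.7%. The groups overlapped for the other 13. With each cell thinned to 1000 UMIs and cells with fewer left out, 19 of 30 were fitted above 0. The median became 0.13, with 0.01 for all genes. With library sums thinned to the smallest, which left out no cell, 22 of 30 were above 0. The median was then 0.26, with 0.01 for all genes. Without E6R replicate 1 the median was 0.28, with 0.05 for all genes. Without DMSO replicate 1 it was 0.51, with 0.13 for all genes. The mitochondrial share was lower in both E6R libraries. Without mitochondrial and ribosomal protein genes the median was 0.35, with 0.04 for all genes.

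STARD4 stood at 86.8 and 88.0 CPM under E6R, beside 41.4 and 45.3 CPM under DMSO. Its log2 fold change was 1.01 (SE 0.18, 95% interval 0.60 to 1.42, edgeR adjusted p = 0.205). FDPS stood at 276 and 298 CPM under E6R, beside 174 and 172 CPM. Replicates lay close together for both genes, and neither overlapped DMSO. FDPS had a log2 fold change of 0.73 (SE 0.19, 95% interval 0.29 to 1.17, adjusted p = 0.205). CYP51A1 stood at 205 and 141 CPM under E6R, with a log2 fold change of 0.67 (95% interval 0.14 to 1.20, adjusted p = 0.226). FADS2 stood at 72.5 and 62.5 CPM under E6R, with a log2 fold change of 0.71 (95% interval 0.07 to 1.34, adjusted p = 0.253). These 4 genes belong to different steps: isoprenoid supply, lanosterol demethylation, sterol transfer and desaturation.

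The SREBP control genes, with HMGCS1, FASN and SCD, had the following values under E6R. HMGCS1 stood at 101 and 42.8 CPM, with a log2 fold change of 0.60 and a 95% interval from -0.38 to 1.58. INSIG1 stood at 29.9 and 13.1 CPM, and SREBF1 at 11.6 and 19.9 CPM. SREBF2 stood at 71.8 and 50.9 CPM and SCAP at 32.5 and 37.8 CPM. The log2 fold changes were 0.49 for INSIG1, 0.39 for SREBF1, 0.32 for SREBF2 and -0.18 for SCAP. The E6R and DMSO libraries overlapped for HMGCS1, INSIG1 and SREBF1, while both E6R libraries lay above DMSO for SREBF2 and below it for SCAP. FASN stood at 131 and 117 CPM under E6R and SCD at 319 and 399 CPM, both above DMSO in both libraries, with log2 fold changes of 0.30 and 0.47. TM7SF2 and LSS, which rose under TSA, were fitted below DMSO under E6R: TM7SF2 stood at 5.37 and 11.7 CPM, overlapping DMSO, with a log2 fold change of -0.41, and LSS at 34.4 and 29.5 CPM with one of -0.28. Adjusted p-values of the 30 genes ran from 0.205 to 0.958.

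**Figure D3:**
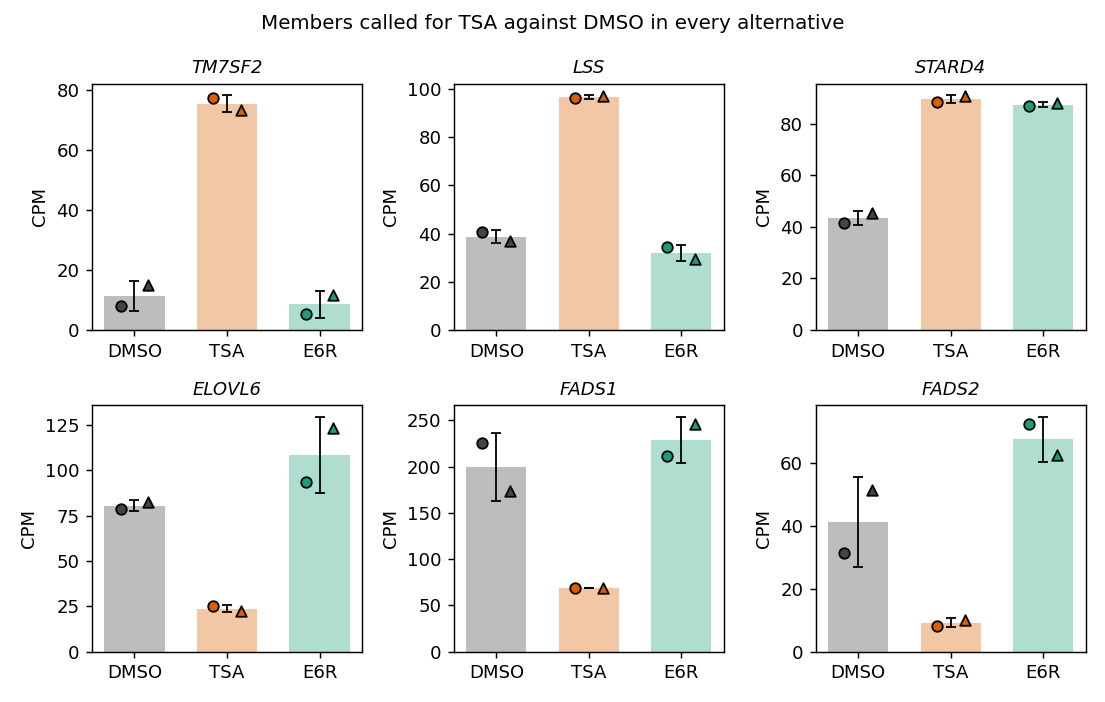
CPM of TM7SF2, LSS, STARD4, ELOVL6, FADS1 and FADS2 in every library by treatment, with one panel a gene and a linear axis from 0. Circles are replicate 1, triangles are replicate 2, bars are group means and error bars are the SD of 2 libraries. TM7SF2 and LSS stand highest under TSA, FADS1, FADS2 and ELOVL6 stand lowest there, and STARD4 is at 86.8 to 90.6 CPM in all 4 TSA and E6R libraries.

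The direct comparison of E6R with TSA called 12 of the 30 genes (40.0%), 6 higher and 6 lower under E6R, against 38.2% of all genes tested, so the share called was near the background. This comparison shares its TSA libraries with the first one. Of the 23 sterol genes 3 were higher and 6 lower under E6R than under TSA, and of the 7 fatty acid genes 3 were higher and none lower. The median over the 30 genes was 0.16, with 16 above 0, and that over all genes tested was -0.09, with 47.1% above 0. With library size only the split was 8 higher and 4 lower, and with RLE size factors 8 higher and 5 lower.

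The fatty acid genes higher under E6R than under TSA were FADS2 (72.5 and 62.5 CPM against 8.28 and 10.2), ELOVL6 (93.6 and 123 CPM against 25.1 and 22.3) and FADS1 (211 and 246 CPM against 68.7 and 68.4). The log2 differences were 2.87 for FADS2 (SE 0.30, edgeR adjusted p = 0.000579), 2.19 for ELOVL6 (SE 0.21, adjusted p = 0.00051) and 1.74 for FADS1 (SE 0.21, adjusted p = 0.00099). The 3 sterol genes higher under E6R were ACAT2, CYP51A1 and FDPS. ACAT2 stood at 109 and 91.0 CPM under E6R, a log2 difference of 1.37 (SE 0.21, adjusted p = 0.00236). CYP51A1 differed by 1.13 (SE 0.23, adjusted p = 0.00716) and FDPS by 0.65 (SE 0.19, adjusted p = 0.0284). The E6R and TSA libraries did not overlap for any of these 6 genes, which were picked by their calls on the same libraries. Of all 30 genes, called or not, both E6R libraries lay above both TSA libraries for 12 and below for 12. The share of all genes that did so was not counted, so these counts have no background.

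The 6 genes lower under E6R than under TSA were IDI1, LSS, TM7SF2, HSD17B7, SREBF1 and SCAP. TM7SF2 differed most, by a log2 value of -3.13 (SE 0.42, edgeR adjusted p = 0.00144), and LSS by -1.60 (SE 0.19, adjusted p = 0.000989). HSD17B7 stood at 22.1 and 19.3 CPM under E6R and differed by -1.31 (SE 0.25, adjusted p = 0.00518). SREBF1 differed by -1.35 (SE 0.30, adjusted p = 0.00963), IDI1, at 83.2 and 47.0 CPM under E6R, by -0.90 (SE 0.27, adjusted p = 0.0319), and SCAP by -0.61 (SE 0.21, adjusted p = 0.0489). Another 6 genes had an unadjusted p under 0.05 and missed the adjusted threshold: EBP at 0.63 (adjusted p = 0.0504), FASN at 0.58 (0.0513), FDFT1 at -0.81 (0.0609), MVD at -0.65 (0.0652), DHCR7 at -0.50 (0.0709) and MVK at -0.54 (0.0733). With replicate number as a block in the edgeR fit, 18 genes were called in place of 12: EBP (adjusted p = 0.037), FASN (0.0433), FDFT1 (0.00740) and MVD (0.0209) passed, as did MSMO1 (0.77, adjusted p = 0.0212) and SC5D (0.93, adjusted p = 0.00672). FDFT1 stood at 143 and 88.0 CPM and DHCR7 at 49.7 and 50.9 CPM under E6R.

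The 3 smallest differences between the agents were those of STARD4, SCD and ACLY. STARD4 differed by -0.03 between E6R and TSA (95% interval -0.44 to 0.37), SCD by -0.03 (-0.59 to 0.52) and ACLY by -0.05 (-0.64 to 0.55). The intervals of SCD and ACLY leave room for differences as large as the 0.50 and 0.51 by which TSA differed from DMSO, while that of STARD4 does not reach its 1.04. FADS1, FADS2, ELOVL6, ACAT2, LSS and TM7SF2 were called in all 19 alternative settings. Without TSA replicate 2 there were 7 calls; FDPS (adjusted p = 0.201), CYP51A1 (0.0793), IDI1 (0.135), SREBF1 (0.080) and SCAP (0.124) were lost. Without TSA replicate 1, HSD17B7 (0.0527), FDPS (0.0764), IDI1 (0.139) and SCAP (0.256) were lost. Without E6R replicate 2 the lost calls were FDPS (0.0769), IDI1 (0.111) and SCAP (0.0619), and without E6R replicate 1 SCAP (0.222). Leaving out a DMSO library, which takes part in the shared scaling and estimate of spread, lost IDI1 (0.072 and 0.0835) and SCAP (0.105 and 0.131). SCAP kept its call in 5 of the 19 settings. Without a TSA library far fewer genes were called in all as well. Without an E6R or DMSO library the number called in all fell less.

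Summed over the 23 sterol genes, levels were 1396 ± 125 CPM under DMSO, 1817 ± 176 CPM under TSA and 1824 ± 213 CPM under E6R (SD, n = 2 each). Summed over the 7 fatty acid genes they were 1175 ± 164, 1212 ± 152 and 1542 ± 103 CPM. The sums are weighted to the abundant genes, so the fatty acid sum under TSA holds higher values of ACLY and SCD beside lower ones of FADS1 and ELOVL6. No test was made on these sums.

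The rest of the pathway, 53 other genes of which 51 were tested, was counted by list. Under TSA 10 rose and 6 fell (31.4% called, against 29.7% of all genes tested), and none was called under E6R against DMSO. Under E6R 12 were higher and 15 lower than under TSA (52.9%, against 38.2% of all genes tested). By list, the share called under TSA ran from 23.1% to 37.5%, on both sides of that of all genes. THRSP and ELOVL7 were under the low-count filter. Of the 13 remaining sterol and isoprenoid enzymes, 2 rose and 1 fell under TSA. POR, which passes electrons to CYP51A1 and SQLE, stood at 79.7 and 64.1 CPM under DMSO, 288 and 247 CPM under TSA, and 64.7 and 64.1 CPM under E6R. POR rose by 1.90 under TSA (SE 0.21, edgeR adjusted p = 0.00123), and E6R differed from TSA by -2.06 (adjusted p = 0.000533). DHDDS, which makes dolichol precursors, rose by 1.40 (adjusted p = 0.00534).

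Of the 10 genes of SREBP processing and endoplasmic reticulum sterol sensing, 1 rose and 2 fell under TSA. C12orf49 (SPRING1), needed for SREBP cleavage, rose by 0.79 (edgeR adjusted p = 0.0197). ERLIN1, an endoplasmic reticulum protein that restrains SREBP, fell by 0.82 (adjusted p = 0.0239). ERLIN1 and MARCH6, a ubiquitin ligase of sterol enzymes, were higher under E6R than under TSA, by 1.02 (adjusted p = 0.0073) and 0.93 (adjusted p = 0.0128). Of 12 genes of sterol storage, transport and efflux, 3 rose and 1 fell under TSA. They include NPC2, which hands cholesterol out of lysosomes (1.84, adjusted p = 0.0151), and OSBP, an oxysterol-binding exchanger (1.44, adjusted p = 0.0075). NPC2 and OSBP were lower under E6R than under TSA, by log2 values of -2.25 and -1.32.

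Of the 16 tested genes of fatty acid supply, elongation and activation, 4 rose and 2 fell under TSA. ACSL3, an acyl-CoA synthetase, stood at 89.0 and 116 CPM under DMSO, 270 and 278 CPM under TSA, and 148 and 124 CPM under E6R. It rose by 1.41 under TSA (edgeR adjusted p = 0.00334), as did ACSL1, by 1.42 (adjusted p = 0.0073). ME1, a source of NADPH for lipid synthesis, stood at 37.6 and 45.9 CPM under DMSO, 22.1 and 13.6 CPM under TSA, and 65.4 and 59.1 CPM under E6R. ME1 fell by 1.22 under TSA (adjusted p = 0.0144) and was higher under E6R than under TSA by 1.80 (adjusted p = 0.00228). The elongase ELOVL1 was also higher under E6R than under TSA, by 1.16, and ACSS2, which activates acetate, was lower, by a log2 value of -1.07.

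Sterol genes also varied with replicate number inside the groups. Replicate 1 lay above replicate 2 in all 3 treatments for 11 of the 30 genes (36.7%), against 17.0% of all genes tested. All 11 were sterol genes (47.8% of 23), and none of the 7 fatty acid genes did so. They were ACAT2, HMGCS1, MVD, IDI1, FDFT1, SQLE, CYP51A1, MSMO1, HSD17B7, SC5D and INSIG1. HMGCS1 in replicate 1 was 1.88 times replicate 2 under DMSO, 1.12 times under TSA and 2.36 times under E6R. For INSIG1 the ratios were 1.81, 1.13 and 2.29, and for SC5D 1.46, 2.09 and 2.12. MSMO1 stood at 29.7 and 14.5 CPM under DMSO, 25.1 and 15.5 CPM under TSA and 43.7 and 25.8 CPM under E6R. SREBF1, STARD4, ACLY and SCD were lower in replicate 1 in all 3 treatments, and the share of all genes that were so was not counted. Some ratios were near 1: STARD4 had 0.91 under DMSO, 0.98 under TSA and 0.99 under E6R. CYP51A1 had 1.01 under DMSO and IDI1 1.03 under TSA. The labels give no batch, and this is a description with no test.

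Summed markers of 3 other cell types, fibroblast or mesenchymal, endothelial and epithelial, were higher in replicate 1 in every treatment. The 6 fibroblast or mesenchymal markers, all detected, summed to 141 and 29.5 CPM under DMSO, 163 and 92.6 CPM under TSA and 320 and 31.0 CPM under E6R, replicate 1 first. Of these, 4 (COL1A1, COL3A1, DCN and LUM) were higher in replicate 1 in all 3 treatments, and COL1A2 and PDGFRB were not; DCN stood at 56.9 and 1.91 CPM, 63.0 and 29 CPM, and 165 and 1.92 CPM. The 3 endothelial markers summed to 49.5 and 4.02, 11.5 and 4.53, and 65.6 and 1.88 CPM, and the 4 epithelial markers to 63.7 and 12.8, 29.9 and 16.0, and 63.5 and 18.2 CPM. All 3 endothelial markers and 1 of the 4 epithelial ones, KRT18, were higher in replicate 1 in every treatment. CDH1 was lower, but it was under the low-count filter and had only 0 to 4 UMIs a library, too few to give a direction. The other sums did not follow replicate number in that way: immune markers summed to 9.56 and 10.7, 12.3 and 14.3, and 8.97 and 8.24 CPM, hepatocyte markers to 0.425 and 18.0, 1.14 and 0.435, and 1.20 and 0.414 CPM, and adipocyte markers to 2.12 and 1.15, 0.532 and 0.697, and 0.190 and 0.301 CPM. The adrenergic sum was lower in replicate 1 in every treatment, at 3094 and 3522, 3720 and 4286, and 3106 and 5541 CPM. Of its 8 genes 3 (HAND2, ISL1 and CHGB) were lower in replicate 1 in all 3 treatments and 1 (GATA3) was higher. Their part in the differences between replicates was not tested.

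**Figure D4:**
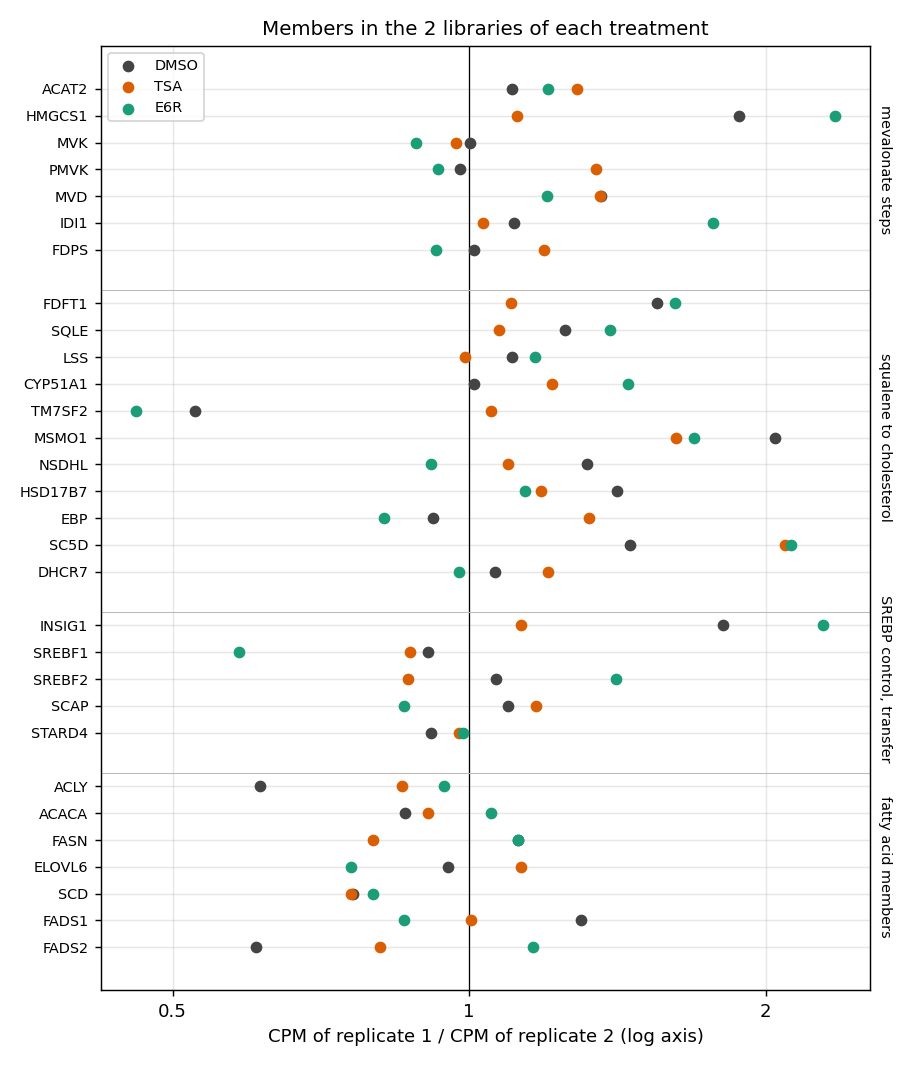
Ratio of CPM in replicate 1 to CPM in replicate 2 on a log axis, with genes in rows by step of the pathway and one point a treatment. The vertical line at 1 marks equal values. All 3 points lie to the right of it for 11 sterol genes, HMGCS1 (1.88, 1.12 and 2.36) and INSIG1 among them, and for no fatty acid gene.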

How the data were processed

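Single-cell libraries of 6 samples were deposited by the authors as matrices of whole-number UMI counts per gene and barcode, with no normalization. STARsolo 2.7.9a and GRCh38 were used, per the submitters' processing notes. The annotation and the strand rule of the counting are not stated there.

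Kept as cells were 17589 barcodes with 500 or more genes and no more than 20% mitochondrial UMIs. Their counts were summed per library and tested with edgeR 4.0.16 (R 4.3.3): quasi-likelihood fit, TMM, filterByExpr, group as the only term, all 6 libraries in one fit, Benjamini-Hochberg adjustment. The common biological coefficient of variation was 0.288. The fit was tested on simulated data in which every gene had that common value and libraries were independent. Real libraries of the same number deviated together, as given below, so that test does not cover such spread. No doublet caller was run; the 5% of cells with most UMIs were left out as an alternative. DESeq2 1.42.0 was an alternative. Same-numbered libraries deviated together from their group means across 7515 genes (correlation 0.24 for DMSO with TSA, 0.56 for DMSO with E6R and 0.17 for TSA with E6R). This pairing comes from the data, since the labels give only the number and no shared culture or batch; a fit with replicate number as a block was an alternative. A permutation test of 2 libraries against 2 cannot go below p = 0.333, so none was used.

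The 30 genes, the lists and the tests were chosen with earlier results of these data known. Values by library are given for called genes with a mean of at least 20 CPM and for SREBF1, SREBF2, INSIG1, SCAP, HMGCS1, FASN and SCD, and for genes whose values a statement rests on, which were chosen after they were seen (MSMO1, POR, ACSL3, ME1, VPS51). Of other pathway lists, at most 3 called genes a list and comparison with that mean are named. One gene that this rule would name is not reported here. Gene positions are from GENCODE 29 and promoters from RefSeq (GRCh38.p14).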

Additional observations from a re-analysis of the deposited data

How the results depend on the processing

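The 19 alternatives changed scaling, filters, cells, libraries or the tool. No called gene changed sign in any of them. Leaving out a TSA or DMSO library also lowered the calls among all genes for TSA against DMSO. Leaving out a TSA library did so for E6R against TSA. Against 12 called genes for TSA against DMSO, leaving out 1 library gave 7 to 12, and for E6R against TSA 7 to 13, against 12. For E6R against DMSO, where edgeR called 0, DESeq2 called 2 and edgeR without the low-count filter called 4; leaving out 1 library gave 0 to 0. DHCR7 kept its call under TSA in 8 of 19 alternatives (adjusted p 0.0190 to 0.293), IDI1 in 14, and FDPS kept its call for E6R against TSA in 14 and IDI1 in 11. With replicate number as a block, TSA against DMSO called 12 of the 30 genes, E6R against DMSO 0 and E6R against TSA 18. Beyond the 6 genes gained in the last, the block changed no other call among the 30. Among all genes it gave 6047, 19 and 7567 calls in these comparisons, in place of 4975, 0 and 6408. Leaving out the 299 cells whose barcode is also a cell of another library was chosen after seeing the data; of the called genes it lost only DHCR7 under TSA (0.0575). Depth bears on the counts: with library sums thinned to the smallest, 4562 of all genes were called for TSA against DMSO in place of 4975. For E6R against TSA it was 5346 in place of 6408. With cells thinned to 1000 UMIs, which also left out 503 to 1718 cells a library that had fewer, the counts were 3455 and 4168.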
